A study of Zea mays with 4 samples.

Results

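The maize leaf microRNA table held 6 distinct sequences named miR2118 or miR482, of 319 distinct sequences in all. A sequence was taken where its name held miR2118 or miR482, in either case and with no further digit, and each sequence was used once. This gave 4 miR2118 sequences on 7 lines of the table and 2 miR482 sequences on 1 line each. There were 4 small RNA libraries, all from maize (Zea mays) leaves at the 4-leaf stage. CK1 and CK3 were unfed leaves, whose labels give only the tissue. T1 was taken after 1 day and T3 after 3 days of feeding by Spodoptera frugiperda, the fall armyworm. Each group had 1 library, and nothing in the labels says whether a library came from 1 plant or from several. The labels' protocol mentions further libraries, and whether a deposited column pools several is not stated. Each column is treated here as 1 library. No strain, plant age or sampling time of the unfed leaves is given in the sources used here.

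miR482 and miR2118 form a related superfamily of plant microRNAs. Most of its members are 22 nt long, and that length is known to let a microRNA start the production of phased secondary small interfering RNAs (phasiRNAs) from the transcript it cuts. In many dicots the superfamily pairs with transcripts of NBS-LRR disease resistance genes, at the part that encodes the nucleotide-binding loop. In grasses such as maize and rice, miR2118 is best known for starting phasiRNA production from long non-coding transcripts in young anthers. Leaves are thus not the tissue for which the grass family is best known.

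All 6 are shown because their lengths and bases set them apart where their names do not. They are given 5′ to 3′, in the DNA letters of the deposited table, with the seed (bases 2 to 8) in capitals. The first 3 are the 22-nt sequences and the last 3 the shorter ones.
zma-miR2118b: tTCCCGATgcctcccattccta
ghr-miR482a: tCTTTCCTactcctcccatacc
sly-miR482b: tCTTGCCTacaccgcccatgcc
osa-MIR2118e-p3_2ss13TA19CT: gAAAAGAGagtcaaagagt
osa-MIR2118e-p3_2ss12TA18CT: aAAAGAGAgtcaaagagt
osa-MIR2118k-p5_2ss5GA19TG: aGAGAAAGaaagagagtag
Name prefixes stand for the species of the reference entry, with zma for maize, ghr for cotton, sly for tomato and osa for rice. Only zma-miR2118b carried a maize name. The cotton- and tomato-named sequences were not compared with the maize genome or with a maize miR482 sequence, so their maize origin was not checked. RefSeq's annotation of the Zm-B73-REFERENCE-NAM-5.0 assembly lists 7 MIR2118 genes and 1 MIR482 gene in maize, and MIR2118b lies next to MIR2118d with 0 annotated genes between them.

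Only 3 of the 6 sequences had the trigger length of 22 nt, against 57 of all 319 sequences (17.9%). They were zma-miR2118b and both miR482 sequences, and their names give no precursor arm. The other 3, all miR2118 by name, were 18 or 19 nt long. Both osa-MIR2118e sequences were named for the p3 arm. The 19-nt osa-MIR2118k sequence appeared in the table under the p5 name and under a p3 name with the same suffix, so the names do not settle its arm. The suffix of each short sequence spells 2 positions with 2 letters each, and the second letter was found at the stated position in each case. Read as changes from the rice entry, counted from 1 at the 5′ end, these are T13A and C19T in the 19-nt osa-MIR2118e form, T12A and C18T in its 18-nt form, and G5A and T19G in osa-MIR2118k. The rice entries themselves were not used here.

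The 22-nt sequences resembled one another, and the short ones did not resemble them. With 2 bases of offset and no gaps, zma-miR2118b and ghr-miR482a had 15 of 20 overlapping bases in common (75%). Their longest shared run was CCTCCCAT, at bases 10 to 17 of zma-miR2118b and 12 to 19 of ghr-miR482a, and these were the only 2 of the 319 sequences with that run (0.627%). That run was read from this pair itself, so its absence elsewhere is a description. The sly-miR482b sequence had 14 of 20 bases in common with zma-miR2118b at the same offset (70%). Long runs were not particular to the members. Runs of 8 bases were also shared by zma-miR2118b with bdi-MIR528-p3_1ss21GT and by ghr-miR482a with PC-3p-60461_10, both outside the 6. The longest run of sly-miR482b was 10 bases with zma-miR169f-5p_R+2, also outside the 6, against 5 with either other 22-nt member. Both miR482 sequences agreed at 18 of 22 positions (81.8%), and from ghr-miR482a to sly-miR482b the differences were T5G, T11A, T14G and A20G. Of these 4, T5G lies in the seed. Each member's seed was its own: 0 other sequences of the table had the same bases 2 to 8 as any of the 6.

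The short sequences were runs of A and G. The 18-nt osa-MIR2118e form is the 19-nt form without its first base, and both share the run AAAGAGAGT of 9 bases with osa-MIR2118k. Each also shared a run of 8 bases with sequences outside the 6: 5 such sequences for either osa-MIR2118e form and 6 for osa-MIR2118k. The longest run of the short sequences in common with zma-miR2118b was 2 bases. With no gaps, at most 4 bases were the same in the best overlap of each with zma-miR2118b. Purines made up 94.7% of osa-MIR2118k (18 of 19 bases), 84.2% of the 19-nt osa-MIR2118e form and 83.3% of the 18-nt form, the 3 highest values of all 319 sequences, whose median was 50%. At the other end, ghr-miR482a had 13.6% purines, zma-miR2118b 22.7% and sly-miR482b 27.3%, against a median of 40.9% among all 22-nt sequences. All 3 of the 22-nt sequences began with T, as did 119 of the 319 (37.3%), while the short ones began with A or G. The label of 22-nt phasiRNA triggers therefore covers zma-miR2118b, ghr-miR482a and sly-miR482b by length and bases, and the 3 short entries by name only. Whether any of them starts phasiRNA production in these leaves was not tested.

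**Figure D1:**
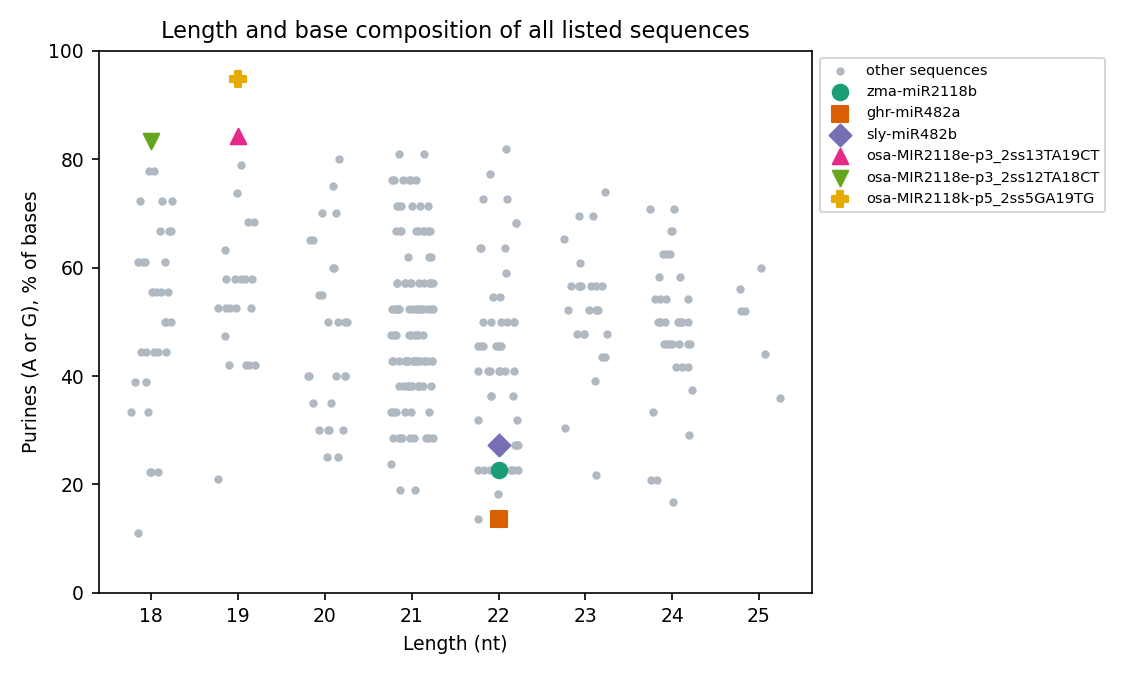
Length in nt (x axis, points spread sideways for legibility) against the share of purines, A or G, in percent of bases (y axis) for all 319 distinct sequences. The 3 short miR2118-named sequences lie at 83.3% to 94.7%, above every other sequence, and the 3 of 22 nt lie between 13.6% and 27.3%.

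Values are the authors' normalized values per sequence, called units here. Within a library most were whole multiples of 1 step, which was taken as the value of 1 read: 0.736 units for CK1, 0.826 for CK3, 0.303 for T1 and 0.352 for T3. On this scale the listed sequences summed to between 87014 reads in CK1 and 209054 in T1, a 2.40-fold span, and all 24 member values came out whole within 0.02 of a read. These sums leave out every read that was not listed, so they are not library depths. Values under 5 reads were nearly absent, so a sequence listed at 0 can have been present up to about 3.68 units for CK1, 4.13 for CK3, 1.51 for T1 and 1.76 for T3. Intervals below are exact 95% Poisson intervals of the reads; they hold counting error alone, and the same molecule may have been read repeatedly, since no molecular identifiers were used.

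All 6 sequences together were a small part of the leaf table, at 61.1 and 90.0 units in the unfed CK1 and CK3 and at 43.9 and 40.1 in the fed T1 and T3. That is 0.0954%, 0.120%, 0.0694% and 0.0631% of the listed units in the same order. The median sequence above 0 stood at 22.1 and 22.3 units in CK1 and CK3, against 10.5 and 12.5 in T1 and T3. In each library at most 2 members reached it, and 1 of them was always ghr-miR482a. In all 4 libraries 3 members were above 0, namely ghr-miR482a and both osa-MIR2118e forms.

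The most abundant 22-nt sequence was ghr-miR482a, of the family that in dicots pairs with NBS-LRR transcripts. It stood at 38.3 units in CK1 (28.6 to 50.2, 52 reads), 33.0 in CK3 (23.6 to 45.0, 40 reads), 22.4 in T1 (17.6 to 28.1, 74 reads) and 19.7 in T3 (14.9 to 25.6, 56 reads). Both fed libraries were thus below both unfed ones, though the intervals of CK3 and either fed library overlapped. T1 had 0.585 times the units of CK1 (0.405 to 0.851 by counting error) and T3 0.597 times those of CK3 (0.391 to 0.919). With the unfed libraries exchanged, the ratio was 0.678 for T1 to CK3 (0.456 to 1.02) and 0.515 for T3 to CK1 (0.347 to 0.766). Within the unfed and within the fed libraries the intervals of the ratio included 1: CK3 had 0.863 times the units of CK1 (0.557 to 1.33), and T3 had 0.880 times those of T1 (0.611 to 1.26). In whole leaves, a smaller share of cells with the microRNA and less of it per cell cannot be told apart.

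The maize-named zma-miR2118b was at 7.36 units in CK1 (3.53 to 13.5, 10 reads) and 14.9 in CK3 (8.81 to 23.5, 18 reads). It was at 6.66 in T1 (4.17 to 10.1, 22 reads) and was listed at 0 in T3. CK3 was the highest library and T3 the lowest, below about 1.76 units. CK3 had 2.02 times the units of CK1, but the counting interval ran from 0.884 to 4.90. T1 had 0.905 times the units of CK1 (0.411 to 2.14) and 0.448 times those of CK3 (0.229 to 0.886). No fold is given for T3. By its deposited values, zma-miR2118b was lower in both fed libraries than in both unfed ones, by a margin of under 1 unit between T1 and CK1.

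The tomato-named sly-miR482b was listed in T3 only, at 4.22 units (2.18 to 7.38, 12 reads). Up to about 3.68 units in CK1 and 4.13 in CK3 could stand behind a 0 there, so its presence in T3 alone was not distinguishable from the unfed libraries at this depth. In T1, with the most implied reads, the limit was 1.51 units. Summed, the 22-nt sequences were at 45.6 units in CK1 and 47.9 in CK3, against 29.1 in T1 and 23.9 in T3.

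**Figure D2:**
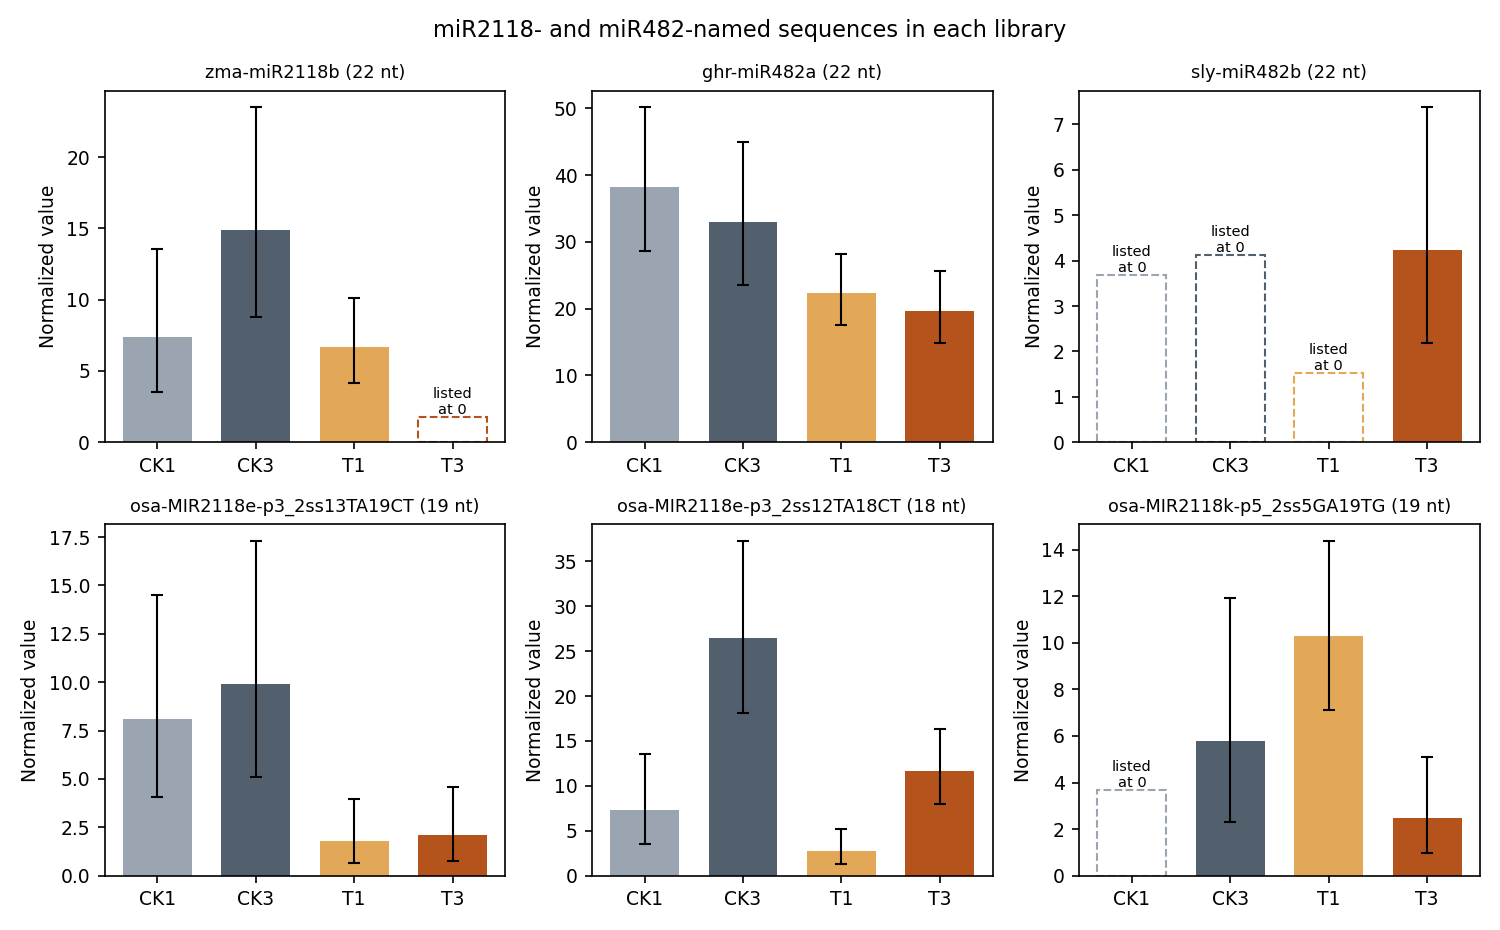
Normalized value (y axis, units) of each of the 6 sequences in the unfed libraries CK1 and CK3 and after 1 (T1) and 3 (T3) days of feeding. Bars are single libraries, error bars exact 95% Poisson intervals of the implied reads, and dashed boxes the value of 5 reads where a sequence was listed at 0. Among the 22-nt sequences, ghr-miR482a stands at 38.3 and 33.0 units without and 22.4 and 19.7 units with feeding.

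Of the short sequences, the 19-nt osa-MIR2118e form was at 8.09 units in CK1 (11 reads), 9.91 in CK3 (12 reads), 1.82 in T1 (6 reads) and 2.11 in T3 (6 reads). Both fed libraries were below both unfed ones. The interval of CK1 (4.04 to 14.5) overlapped that of T3 (0.775 to 4.60) but not that of T1 (0.667 to 3.95). The interval of CK3 (5.12 to 17.3) overlapped neither. T1 had 0.224 times the units of CK1 (0.0681 to 0.662) and T3 0.213 times those of CK3 (0.0656 to 0.614). The 18-nt form, which lacks only the first base, was at 7.36 units in CK1 (10 reads), 26.4 in CK3 (32 reads), 2.72 in T1 (9 reads) and 11.6 in T3 (33 reads). Here the libraries of title number 3 were the highest, and the fed and unfed values overlapped. The osa-MIR2118k sequence was listed at 0 in CK1 and stood at 5.78 units in CK3 (7 reads), 10.3 in T1 (34 reads) and 2.46 in T3 (7 reads), so T1 was the highest library.

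The 18-nt form made up 47.6% of the reads of both osa-MIR2118e forms in CK1 (25.7% to 70.2%, exact Clopper-Pearson interval, 21 reads) and 60% in T1 (32.3% to 83.7%, 15 reads). It made up 72.7% in CK3 (57.2% to 85.0%, 44 reads) and 84.6% in T3 (69.5% to 94.1%, 39 reads). All these intervals overlapped, those of CK1 and T3 by less than 1 percentage point. The range over libraries was 37.0 percentage points. In the table, 7 pairs of sequences differed by the first base and had both forms above 0 in all 4 libraries. Of these, 2 had a range at least as wide, this pair included, and the median was 11.2 points. The pairs were not matched for reads. With 15 to 44 reads in a library, the range of this pair holds much counting error, so the ranges are not directly comparable.

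**Figure D3:**
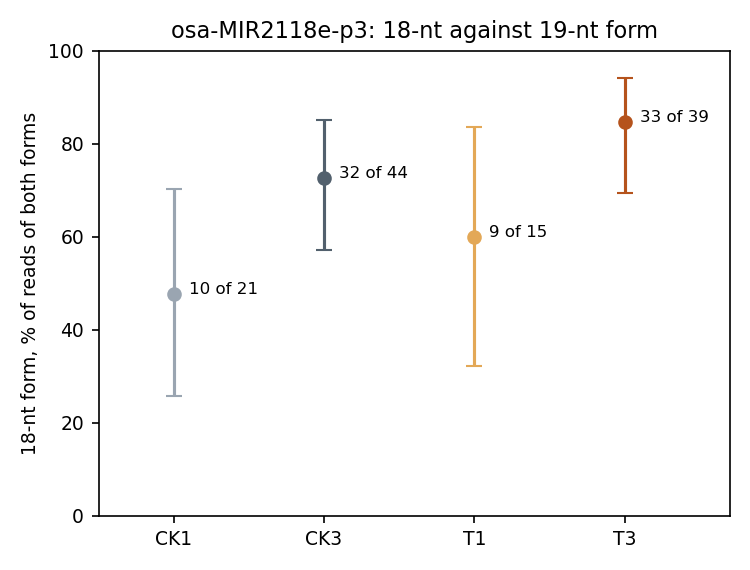
Share of the 18-nt form in percent of the reads of the 18- and 19-nt osa-MIR2118e-p3 forms (y axis) in each library, with the reads beside each point and exact 95% Clopper-Pearson intervals for counting error. The share runs from 47.6% in CK1 to 84.6% in T3.

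Single libraries were compared by size alone, with no test, because each group had 1 library. A sequence was called where log2(value + 1) differed by at least 1, which is 2-fold on that scale, and the higher library held at least 10 units. That scale understates the ratio of low values. In T1 against CK1, 43 of 165 compared sequences of the table were called (26.1%), 26 higher (15.8%) and 17 lower (10.3%). Only 2 of the 6 members reached the minimum there. They were osa-MIR2118k, called higher from a listed 0, and ghr-miR482a, not called, with a log2 difference of -0.75. The median of all compared sequences was -0.12.

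In T3 against CK3, 89 of 185 sequences were called (48.1%), 46 higher (24.9%) and 43 lower (23.2%), around a median log2 difference of 0.01. Of the 3 members compared, 2 were called lower. They were zma-miR2118b, listed at 0 in T3, and the 18-nt osa-MIR2118e form at -1.12, a call that was lost when the libraries were scaled to equal totals (-0.89). The third, ghr-miR482a, stood at -0.72. With nearly 1 in 2 sequences of the table called in this comparison, 2 calls of 3 say little about the members.

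Exchanging the unfed libraries changed the calls. In T1 against CK3, 75 of 178 sequences were called (42.1%), 29 higher (16.3%) and 46 lower (25.8%), and 2 of 4 compared members were lower: zma-miR2118b at -1.05 and the 18-nt osa-MIR2118e form at -2.88. The call of zma-miR2118b was lost at equal totals (-0.83) and under median-of-ratios scaling (-0.97). In T3 against CK1, 48 of 173 sequences were called (27.7%), 35 higher (20.2%) and 13 lower (7.51%). Neither of the 2 compared members was called there, with ghr-miR482a at -0.92 and the 18-nt form at 0.59. Under median-of-ratios scaling ghr-miR482a crossed the threshold there (-1.03). The sign of the 18-nt form at day 3 thus depended on which unfed library was the control, while that of ghr-miR482a was negative against either.

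The unfed libraries also differed from each other. In CK3 against CK1, 96 of 187 sequences were called (51.3%), 54 higher (28.9%) and 42 lower (22.5%), and 1 of 3 compared members, the 18-nt osa-MIR2118e form at 1.71, was higher. The sum of the 18- and 19-nt members was 2.73 times as high in CK3 as in CK1 (1.61 to 4.77 by counting error), at 42.1 and 15.5 units. The sum of the 22-nt members was 1.05 times as high (0.721 to 1.53). In T3 against T1, 29 of 165 sequences were called (17.6%), 23 higher (13.9%) and 6 lower (3.64%). Among 3 compared members the 18-nt osa-MIR2118e form was higher at 1.76, osa-MIR2118k was lower at -1.70, and ghr-miR482a was not called at -0.18.

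**Figure D4:**
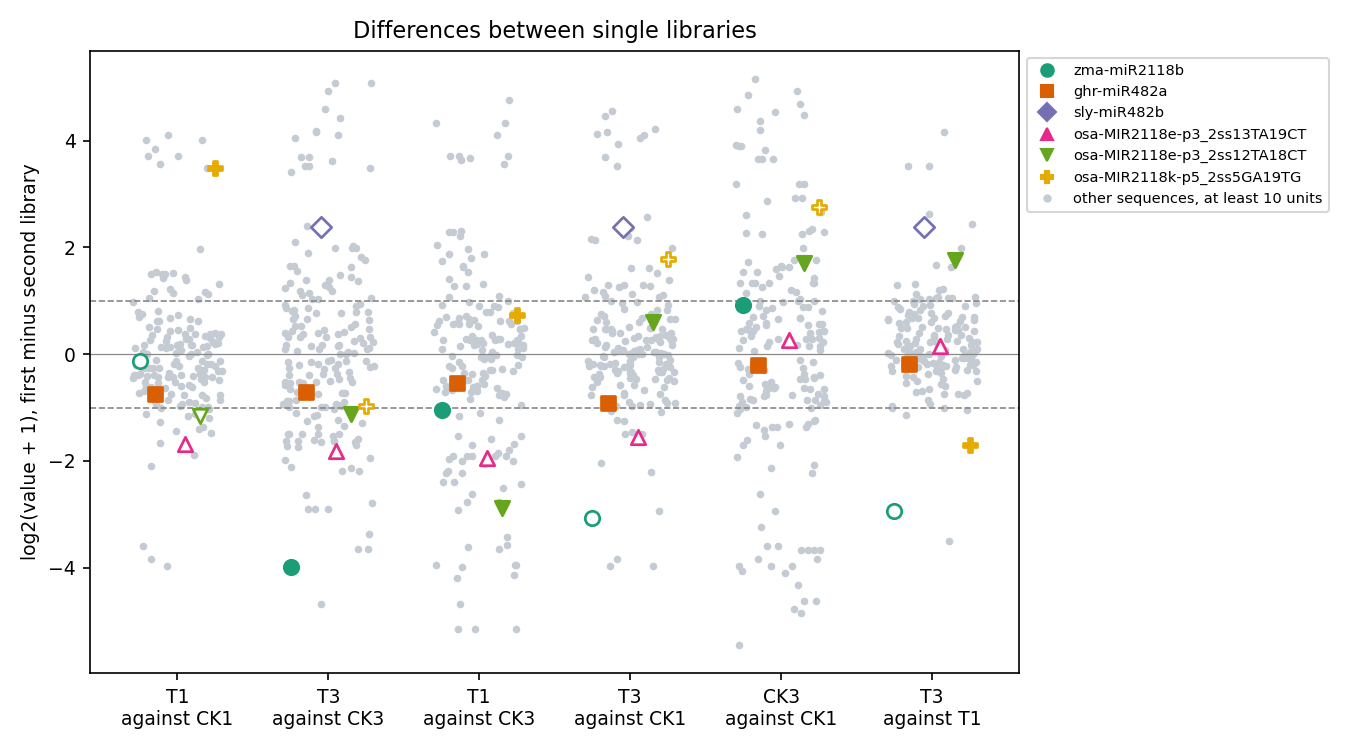
Difference of log2(value + 1) between 2 libraries (y axis, first minus second) for 6 comparisons (x axis). Grey points are the other sequences with at least 10 units in either library, coloured symbols the members, filled where they reach 10 units and open where they do not, and dashed lines 2-fold. The symbol of ghr-miR482a lies between -0.54 and -0.92 in all 4 comparisons of a fed with an unfed library.

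Over all 4 libraries, 3 of the 6 members were lower in both fed libraries than in both unfed ones, namely zma-miR2118b, ghr-miR482a and the 19-nt osa-MIR2118e form. Of all 319 sequences, 28 were lower in both (8.78%), and 63 were higher in both (19.7%). A sequence listed at 0 in an unfed library, as sly-miR482b and osa-MIR2118k were in CK1, could not be lower in both. Above 0 were 205 and 201 of the 319 in CK1 and CK3, against 280 and 276 in T1 and T3. The same 3 members were lower in both fed libraries at equal totals and under median-of-ratios scaling. The other 3 members overlapped between the groups, and 0 members were higher in both fed libraries. The fed libraries were also those with the most implied reads.

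The test of fed against unfed libraries (2 against 2) was made with limma over the 154 sequences with at least 10 units in at least 2 libraries. None was called at an adjusted p (Benjamini-Hochberg) of 0.05, and 6 had an unadjusted p under 0.05. Of the members, 2 entered the test. The log2 difference of ghr-miR482a was -0.73 ± 0.48 (SE; adjusted p = 0.833 by limma), lower in 2 of 2 fed libraries. That of the 18-nt osa-MIR2118e form was -1.14 ± 1.01 (SE; adjusted p = 0.833 by limma). With no minimum, 0 of 319 sequences were called, and 35 had an unadjusted p under 0.05. Among members the 19-nt osa-MIR2118e form came first, with a log2 difference of -1.75 ± 0.58 (SE; adjusted p = 0.413 by limma). Separate plants are not stated for these samples, so the p-values measure only the spread between them, which may be technical. Within the fed group that spread also holds the difference between 1 and 3 days of feeding.

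Of 15 other families listed as phasiRNA triggers in plants, 3 were in the table, with 9 sequences. The miR390 family, which starts phasiRNA production from TAS3 transcripts and thereby acts on auxin response factors, was the highest. Its 21-nt zma-miR390a-5p stood at 706 and 457 units in CK1 and CK3, against 547 and 425 in T1 and T3. The miR393 family, known for targeting auxin receptor transcripts, summed to 133, 121, 165 and 146 units in the same order. zma-miR2275b-5p, of the family that starts 24-nt phasiRNAs in grass anthers, was listed in T1 only, at 3.03 units. Of the 9 sequences 1 was 22 nt long, an aof-miR390 form at 1.82 units in T1 only. In each of the 6 comparisons 4 of them reached the minimum and 0 were called. At their highest, the summed miR482 sequences (38.3 units in CK1) and the summed miR2118 sequences (57.0 units in CK3) were below the lowest sum of either miR390 or miR393. Of the 57.0 units in CK3, 42.1 were the short entries, miR2118 by name only, and 14.9 were zma-miR2118b.

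The sequences whose profile over the 4 libraries was nearest to that of each family sum were found among 152 non-members, by the Euclidean distance between log2(value + 1) values centred on their mean. Nearest to the miR482 sum were bdi-miR528-5p_R+1 at a distance of 0.24, tae-miR167c-5p_1ss22CT at 0.26 and ath-miR159c_R+2_1ss20CT at 0.28, against a median distance of 1.22. The first stood at 75.1 and 66.1 units in CK1 and CK3, against 38.8 and 39.4 in T1 and T3. Nearest to the miR2118 sum were tae-miR9774_L+1_2ss4AG21GT at 0.55, zma-MIR169g-p3 at 0.59 and zma-miR529-5p at 0.66, against a median of 1.75. The last stood at 50.0, 74.3, 36.9 and 39.4 units in the same order, highest in CK3 like the miR2118 sum. That sum is mostly the short entries, with 42.1 of its 57.0 units in CK3. These distances rest on 4 libraries and are a description.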

How the data were processed

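Total RNA was extracted from leaves with Trizol, and libraries were made with the TruSeq Small RNA kit, per the labels' protocols. The authors deposited normalized signal values per microRNA sequence, per the file headers. How they scaled the values, and with which aligner, caller and build, is not stated. The labels' protocol mentions further libraries, and whether a column pools several is not stated.

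Table lines with the same sequence had equal values and were used once. The step between values was the largest for which at least 85% of values under 100 units were whole multiples within 0.02. Over all values above 0, 90.4% to 93.8% were whole, which was too few for a count model. Ratio intervals are exact binomial intervals of the 2 read numbers. limma 3.58.1 (R 4.3.3) was run with a trended prior on log2(value + 1). It was also run on simulated counts with known changes, larger than the difference of ghr-miR482a. That run does not measure power for a difference as small as that of ghr-miR482a. Other steps used Python 3.11.15 with scipy 1.17.1. The named sequences were all members, the 3 nearest profiles per family, sequences with a member's seed, and a list of other triggers. Members and lists were chosen with earlier results of these data known. Alternatives were other pseudocounts, minimums and scalings, merged sequences, a replicate block and each library left out.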

Additional observations from a re-analysis of the deposited data

Results flagged for a closer look

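With T1 set against CK1 and T3 against CK3, the osa-MIR2118k-p5_2ss5GA19TG sequence had differences of opposite sign on the 2 days. It was higher in T1 than in CK1, where it was listed at 0, and lower in T3 than in CK3, at 2.46 against 5.78 units, a ratio of 0.426 whose counting interval (0.128 to 1.42) includes 1. Against the listed 0 of CK1, T3 was higher too, with a log2(value + 1) difference of 1.79. By listed values the opposite signs thus depend on which unfed library is the control. The 0 in CK1 can stand for up to about 3.68 units, above the 2.46 of T3, so the sign of that difference is not settled. The log2(value + 1) differences of T1 from CK1 and of T3 from CK3 were 4.47 apart. That gap rests on the listed 0 in CK1. The difference of T1 from CK1 was 4.43 with a pseudocount of 0.5 and 1.61 with a pseudocount of 5. With 1 library per group this was not tested, and the values rest on 34, 7 and 7 reads in T1, T3 and CK3.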

How the results depend on the processing

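The direction of every called member held at equal totals and under median-of-ratios scaling. A change of pseudocount or minimum, or merging sequences, cannot reverse the direction between single libraries. Without a minimum, 137 of 292 compared sequences were called for T1 against CK1 and 170 of 285 for T3 against CK3. The numbers were 175 of 297 for T1 against CK3 and 127 of 282 for T3 against CK1. For T3 against T1 they were 102 of 313, and for CK3 against CK1 139 of 241. Members called were 3 of 5, 4 of 6, 3 of 5, 4 of 6, 4 of 6 and 2 of 5 in that order. With a minimum of 20 units, called sequences were 17 of 118, 57 of 132 and 49 of 125 for the first 3 comparisons. For the last 3 they were 28 of 123, 17 of 122 and 57 of 127. Members called were 0 of 1, 1 of 2, 1 of 2, 0 of 1, 0 of 1 and 1 of 2 in that order. With a pseudocount of 5, T3 against T1 had 15 called sequences of 165. T3 and T1 against CK3 had 1 called member each, of 3 and 4, beside 74 of 185 and 71 of 178 sequences. At equal totals T3 and T1 against CK3 also had 1 called member each, beside 90 of 180 and 75 of 174 sequences. Under median-of-ratios scaling T1 against CK3 and T3 against CK1 had 1 each, of 4 and 2. All sequences called there were 77 of 178 and 52 of 173. Equal totals moved the median log2 difference of all compared sequences from 0.01 to 0.31 for T3 against CK3, from -0.04 to 0.22 for T1 against CK3 and from 0.22 to -0.06 for CK3 against CK1.

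In limma, leaving out 1 library gave 0 to 4 called sequences, with all 4 called without CK3 and no member among them; a lone library is there assumed to vary like the other group. The difference of ghr-miR482a lay between -0.83 and -0.63, with an adjusted p of 0.293 to 0.999. That of the 18-nt osa-MIR2118e form was -2.0 without CK1 and -0.26 without T1, and without CK3 or T3 it was under the minimum. With the title number as a replicate block, 0 sequences were called and ghr-miR482a stayed at -0.73 (limma adjusted p = 0.783). Deviations of CK1 and T1 from their group means had a correlation of 0.306 across 154 sequences, but the labels do not say that the number marks a shared plant or day. Depth limited all member values but those of ghr-miR482a to 34 reads or fewer.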
